A study of Mus musculus with 4 samples.

Results

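The effect of phenelzine on accessible DNA in resting CD8+ T cells was examined by setting the peak list of unstimulated, phenelzine-treated cells beside that of unstimulated, untreated cells. Both samples, chosen by their labels, are CD8+ T cells of BALB/c mice, which the series title places in tumours. They are 2 of the 4 libraries of the study, which used ATAC-seq, an assay in which Tn5 transposase cuts and tags open DNA. The other 2 libraries, untreated and phenelzine-treated, were stimulated for 2 h with phorbol myristate acetate and ionomycin, a pair of agents that mimic T cell receptor signalling, and serve here only as a second place to look for each region. No genetic change is named for any group. The labels used here give no dose, length of phenelzine exposure, age or number of animals. There was 1 library per condition and no replicate, so no test between conditions was possible and no p-value is given. Intervals are exact (Clopper-Pearson) 95% intervals and cover counting error only. In bulk cells, a different mix of cells and a different state of the same cells cannot be told apart.

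Phenelzine is an irreversible inhibitor of monoamine oxidases A and B, the flavin enzymes that break down serotonin, noradrenaline and dopamine. It also inhibits LSD1, the product of Kdm1a, a related flavin enzyme. LSD1 removes methyl groups from lysine 4 of histone H3 within complexes that hold CoREST (Rcor1) and the deacetylases HDAC1 and HDAC2, and is known mainly as a repressor at promoters and enhancers. In resting T cells, factors such as FOXO1, KLF2 and BACH2 maintain quiescence, whereas AP-1, NF-kB and NFAT act after stimulation.

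The untreated list held 6519 peaks on chromosomes 1 to 19 and X, and the phenelzine list held 7929. The number of reads is not in the lists. The background pileup implied by the peaks was 0.392 in the untreated library and 0.471 in the phenelzine library, a ratio of 1.201, and the ratio of peak numbers was 1.22. Whether the longer list came from the treatment or from depth cannot be told apart. Overlapping peaks of both lists were merged into 9699 regions. Of these, 4719 were held by both lists, 3197 by the phenelzine list alone (33.0%, interval 32.0 to 33.9) and 1783 by the untreated list alone (18.4%, 17.6 to 19.2). The shared regions made up 59.6% of all regions of the phenelzine list and 72.6% of those of the untreated list. When the phenelzine list was shortened to the length of the untreated list by −log10 q, 2142 regions were in the phenelzine list alone and 2137 in the untreated one alone. Equal lengths set this near balance, which therefore says nothing about the source of the longer list.

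The labelled cell type was checked against its markers. Loci, taken as the gene body with 20 kb on either side, of Cd8a, Cd8b1, Cd2, Cd5, Zap70 and Lcp2 held no region in either list. Regions lay near Cd3d, Cd3e, Cd3g, Cd247, Lat, Lck, Thy1, Ptprc and Cd6, the last at the start of its neighbour Slc15a3. In all, 9 of these 16 identity genes had a region, against 49.3% of all genes, and none had one at its start. The leukocyte gene Ptprc (CD45) had 1 region in the phenelzine list and 3 in the untreated list. Among markers of other cells, 8 of 14 myeloid, 4 of 10 B cell, 3 of 8 NK cell, 1 of 7 CD4 and regulatory T cell, 2 of 10 epithelial tumour and 3 of 12 stroma and endothelium genes had a region in the locus. The regions at these genes thus do not show the cell type on their own.

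The start regions that carry the comparison are shown by their promoter sequence from RefSeq (GRCm38.p6), the 250 bases before a listed transcription start. Mouse reference sequence is that of C57BL/6J, and BALB/c may differ from it. Capitals mark matches, on either strand, to the motifs described with the promoters below. Hif1a, Foxo1, Prdx1 and Kdm1a had a start region in the phenelzine list alone, Tgif1 and Trmt61a in the untreated list alone, and Klf2 and Txnip in both. Relative to the start site, the regions ran from -158 to 7 at Hif1a, -101 to -8 at Foxo1, -69 to 30 at Prdx1, -52 to 21 at Kdm1a, -189 to -108 at Tgif1, -46 to 28 at Trmt61a, -247 to -6 at Klf2 and -215 to 28 at Txnip.
Hif1a: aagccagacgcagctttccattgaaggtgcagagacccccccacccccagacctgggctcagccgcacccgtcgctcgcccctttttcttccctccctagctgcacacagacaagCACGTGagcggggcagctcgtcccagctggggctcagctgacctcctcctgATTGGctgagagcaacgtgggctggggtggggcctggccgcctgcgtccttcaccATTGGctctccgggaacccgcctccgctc
Foxo1: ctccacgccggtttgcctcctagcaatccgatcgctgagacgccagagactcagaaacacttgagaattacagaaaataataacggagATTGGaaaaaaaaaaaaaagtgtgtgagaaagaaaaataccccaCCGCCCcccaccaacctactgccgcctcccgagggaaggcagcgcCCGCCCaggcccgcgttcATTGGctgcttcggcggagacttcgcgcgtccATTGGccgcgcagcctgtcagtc
Prdx1: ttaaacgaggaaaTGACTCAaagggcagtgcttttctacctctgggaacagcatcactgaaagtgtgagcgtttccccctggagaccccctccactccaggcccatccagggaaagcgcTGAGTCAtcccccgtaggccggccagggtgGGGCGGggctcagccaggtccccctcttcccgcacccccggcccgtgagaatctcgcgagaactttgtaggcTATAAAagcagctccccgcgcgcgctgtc
Kdm1a: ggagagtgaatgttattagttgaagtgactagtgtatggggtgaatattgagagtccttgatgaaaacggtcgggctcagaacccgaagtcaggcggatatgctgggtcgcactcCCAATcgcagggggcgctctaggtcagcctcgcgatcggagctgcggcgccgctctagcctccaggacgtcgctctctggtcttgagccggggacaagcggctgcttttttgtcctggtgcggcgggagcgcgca
Tgif1: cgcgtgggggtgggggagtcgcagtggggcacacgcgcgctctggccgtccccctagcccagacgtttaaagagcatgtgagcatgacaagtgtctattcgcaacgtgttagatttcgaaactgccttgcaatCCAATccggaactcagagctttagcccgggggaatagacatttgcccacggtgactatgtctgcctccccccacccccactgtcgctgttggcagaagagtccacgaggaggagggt
Trmt61a: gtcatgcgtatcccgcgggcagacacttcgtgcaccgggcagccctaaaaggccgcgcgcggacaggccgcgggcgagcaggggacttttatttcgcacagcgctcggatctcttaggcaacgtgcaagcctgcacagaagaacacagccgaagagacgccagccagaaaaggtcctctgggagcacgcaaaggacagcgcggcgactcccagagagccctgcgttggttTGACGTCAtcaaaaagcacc
Klf2: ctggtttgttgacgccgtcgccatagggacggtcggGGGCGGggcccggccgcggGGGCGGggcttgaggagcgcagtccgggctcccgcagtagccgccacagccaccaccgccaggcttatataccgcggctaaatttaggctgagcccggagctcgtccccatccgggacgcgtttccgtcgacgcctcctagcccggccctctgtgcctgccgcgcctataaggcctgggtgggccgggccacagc
Txnip: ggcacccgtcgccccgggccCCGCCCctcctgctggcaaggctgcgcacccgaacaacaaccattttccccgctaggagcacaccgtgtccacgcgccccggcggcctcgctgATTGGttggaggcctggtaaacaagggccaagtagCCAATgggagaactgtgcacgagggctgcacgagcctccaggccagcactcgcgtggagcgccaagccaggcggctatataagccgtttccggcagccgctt

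In mm10 coordinates, counted from 1, the printed windows were chr12:73907617-73907866 for Hif1a (plus strand), chr3:52268087-52268336 for Foxo1 (plus strand), chr4:116685349-116685598 for Prdx1 (plus strand) and chr4:136602724-136602973 for Kdm1a (minus strand). Those of the other genes were chr17:70851735-70851984 for Tgif1 (minus strand), chr12:111677855-111678104 for Trmt61a (plus strand), chr8:72318812-72319061 for Klf2 (plus strand) and chr3:96557707-96557956 for Txnip (plus strand). The called regions were chr12:73907709-73907874 for Hif1a, chr3:52268236-52268329 for Foxo1, chr4:116685530-116685629 for Prdx1 and chr4:136602702-136602775 for Kdm1a, and chr17:70851842-70851923 for Tgif1, chr12:111678059-111678133 for Trmt61a, chr8:72318815-72319056 for Klf2 and chr3:96557742-96557985 for Txnip. All of these regions lie at the 5′ boundary of the gene or at a listed start within it; exons and UTRs were not used here.

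The genes of the drug's targets were described first. Kdm1a, which encodes LSD1, had 1 region in the phenelzine list and 0 in the untreated list. This region covered the start of Kdm1a at a fold enrichment of 4.34 and a −log10 q of 1.86. Of the stimulated lists, the phenelzine list held it and the untreated list did not. Its −log10 q stood above only 24.7% of the peaks of its list, so it is one of the weaker calls. Maoa, the gene of monoamine oxidase A, had no region in the phenelzine list and 1 in the untreated list, 1139 bp before the start, at fold 4.44 and −log10 q 2.01. Maob had none in either list. Among the 20 genes of LSD1 complexes and amine oxidases, 8 had more regions in the phenelzine list and 5 fewer. With lists of equal length 5 had more and 5 fewer, and with loci of 5 kb on either side 4 and 5. Over all 21631 protein-coding genes, 15.8% had more and 8.57% fewer, and among the 10671 with a region in the locus 32.0% and 17.4%.

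A start region lies within 1 kb of a gene start, or of either gene end at the 4357 genes without a listed start. Such a region was in the phenelzine list alone at 6.29% of all genes, in the untreated list alone at 3.51% and in both at 20.3%, in all at 30.3%. Of genes with a start region these were 20.8%, 11.6% and 67.1%. Both lists held the starts of Rcor1 (CoREST), Phf21a (BHC80) and Hmg20b, further parts of the LSD1 complex, and of Kdm1b, the related demethylase LSD2. At Kdm1b the fold enrichment was 5.89 in the phenelzine list and 4.51 in the untreated list, and at Rcor1 it was 5.50 and 4.87. The deacetylases were divided between the lists. Hdac2 had its start region in the phenelzine list alone (fold 4.54, −log10 q 2.23) and Hdac1 in the untreated list alone (4.89, 2.69). Snai1, a repressor that recruits LSD1, also had its start region in the untreated list alone (4.69, 2.38). Fold enrichments belong to each library's own background and are given side by side without a comparison of size.

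Across the genome, the peaks that the lists did not share were mostly weak. Each list was divided into 10 equal bins by −log10 q. Of the phenelzine peaks in the highest bin, 94.3% overlapped a peak of the untreated list, and of those in the lowest bin 22.5% did. In the untreated list the values were 98.5% in the highest bin and 41.2% in the lowest. Median −log10 q was 1.98 in regions of the phenelzine list alone and 2.15 in regions of the untreated list alone, against 3.42 in the phenelzine list and 3.39 in the untreated list in the shared regions. Median widths were 105, 99 and 214 bp in the same order of classes.

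**Figure D1:**
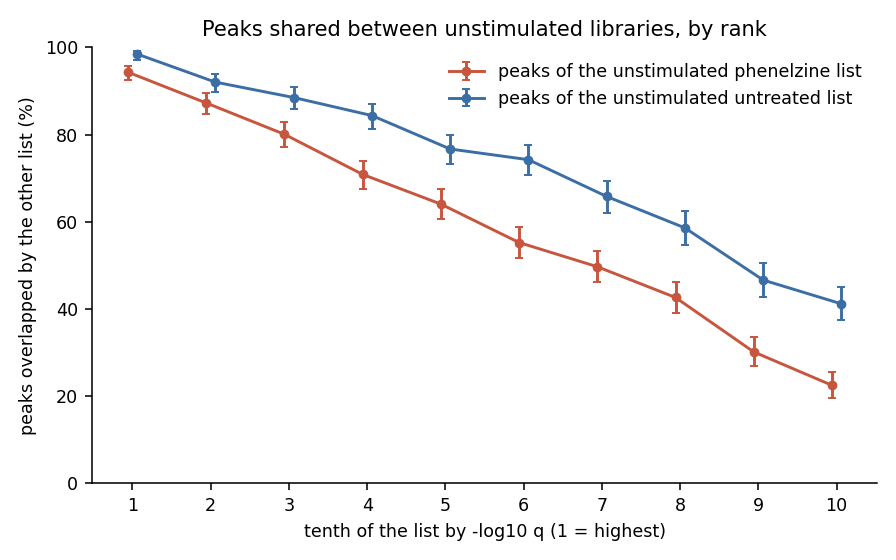
Percent of peaks overlapped by a peak of the other unstimulated list (y axis), in 10 equal bins of the list by −log10 q (x axis, 1 is the highest). Points are the phenelzine (red) and untreated (blue) libraries and bars are exact 95% intervals; the share falls from 94.3% to 22.5% in the phenelzine list and from 98.5% to 41.2% in the untreated list.

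Shared regions were concentrated at gene starts, and regions of a single list less so. Start regions made up 79.7% of shared regions, 42.2% of regions in the phenelzine list alone and 42.8% of those in the untreated list alone. Gene bodies held 7.80%, 26.3% and 27.5%, and sequence outside genes 12.5%, 31.5% and 29.7%. With lists of equal length by fold, start regions were 49.3% of the phenelzine-alone and 44.7% of the untreated-alone class. In both lone classes, few lay beside a peak of the other list: 5.38% of phenelzine regions and 7.18% of untreated regions were within 1 kb of one.

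**Figure D2:**
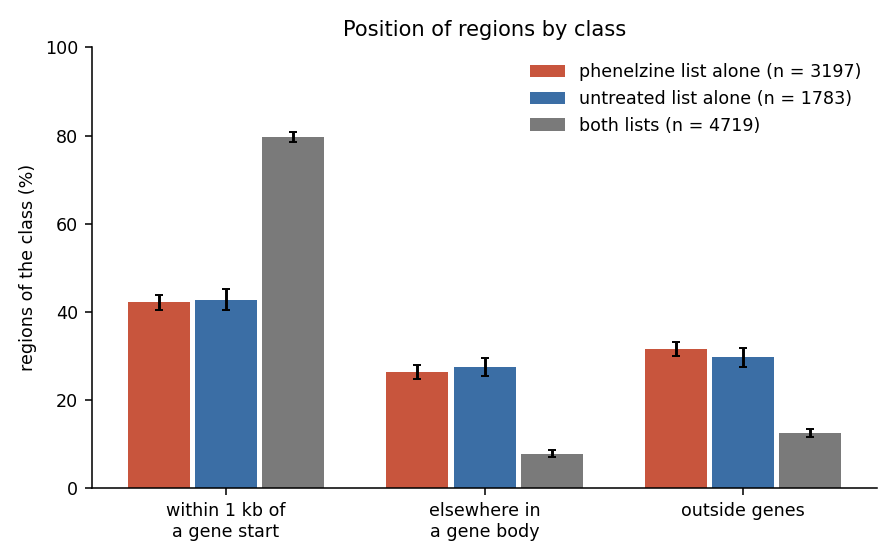
Percent of regions of each class (y axis) within 1 kb of a gene start, elsewhere in a gene body or outside genes. Where no start is listed, either gene end was taken. Bars are the 3197 regions of the phenelzine list alone, the 1783 of the untreated list alone and the 4719 of both lists, with exact 95% intervals; 42.2% and 42.8% of the lone classes and 79.7% of the shared class lie at starts.

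Each class was then looked for in the lists of stimulated cells. Regions found with phenelzine in resting cells were not held more often by the stimulated list with phenelzine than by the one without. Of the 3197 regions of the phenelzine list alone, 48.2% (46.5 to 49.98) were held by the stimulated untreated list and 41.8% (40.1 to 43.6) by the stimulated phenelzine list. Of the 1783 regions of the untreated list alone, 49.4% and 45.0% were held. The stimulated untreated list was the longer one, with 10405 peaks against 9322. Regions found in resting cells with phenelzine and in stimulated cells only with phenelzine numbered 387, or 12.1% (10.99 to 13.3) of the class. By comparison 592, or 18.5%, recurred only in stimulated cells without the drug, and 1268, or 39.7%, in neither. Of regions of the untreated list alone, 233, or 13.1% (11.5 to 14.7), were held only by the stimulated phenelzine list, a like share to the 12.1%.

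Recurrence followed the rank and position of a region. Of 4 equal bins by −log10 q of regions in the phenelzine list alone, in the highest 64.6% were held by the stimulated untreated list and 59.4% by the stimulated phenelzine list, and in the lowest 30.9% and 25.9%. At gene starts 62.7% and 56.0% recurred. In gene bodies 36.5% and 30.4% did, and outside genes 38.7% and 32.4%.

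**Figure D3:**
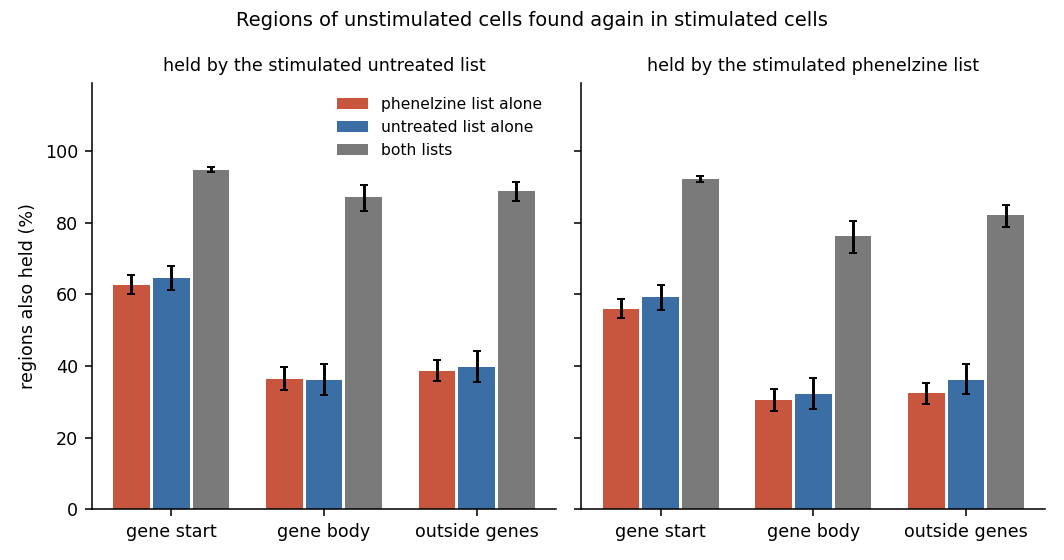
Percent of regions of unstimulated cells (y axis) also held by the stimulated untreated list (left) or the stimulated phenelzine list (right), by class and position, with exact 95% intervals. At starts 62.7% of regions in the phenelzine list alone are held by the untreated list on the left and 56.0% by the phenelzine list on the right.

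Gene by gene, the phenelzine list had more regions in the locus at 3417 genes and fewer at 1854. Start regions were in the phenelzine list alone at 1360 genes, in the untreated list alone at 759 and in both at 4391. A difference of at least 2 regions was found at 3.04% of genes, 2.43% towards phenelzine and 0.61% towards untreated. Among 373 genes of the T cell, chromatin and marker lists, 261 had a region, 89 had more regions and 62 fewer. Of the 261, 34.1% had more and 23.8% fewer, against 32.0% and 17.4% of all genes with a region. Of the 373, 19 (5.09%) differed by at least 2 towards phenelzine and 10 (2.68%) towards untreated. Only 49.3% of all genes had a region, a smaller share than 261 of 373. The shares that differed by at least 2 are therefore not like for like with those of all genes.

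Resting-state regulators were found on both sides. Foxo1, which encodes a forkhead factor that sustains Klf2 and Il7r in naive T cells, had 2 regions at its locus in the phenelzine list and 0 in the untreated list. Its start region in the phenelzine list (fold 5.60, −log10 q 3.97) recurred in both stimulated lists. Id3, a helix-loop-helix inhibitor of naive and memory cells, had a weak start region in the phenelzine list alone (3.74, 1.09). Klf2, a factor of quiescence and of exit from lymphoid tissue, had its start region in both lists, at fold 4.05 and −log10 q 1.496 in the phenelzine list and fold 6.42 and −log10 q 5.35 in the untreated list. A pair of further regions, at -7.97 and 3.57 kb from the 5′ end of Klf2, were in the untreated list alone. Bach2, a repressor that restrains effector differentiation, had 3 regions in its body in the untreated list and 0 in the phenelzine list. The strongest of the 3, 332 kb into the gene (fold 5.19, −log10 q 3.16), recurred in stimulated untreated cells, and the other two in neither stimulated list. Of the 14 naive, quiescence and memory genes, 3 had more regions in the phenelzine list and 4 fewer. Among members with a region the shares were 33.3% and 44.4%, against 32.0% and 17.4% of all genes with a region.

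Hif1a and some effector regulators had more regions in the phenelzine list. Hif1a, the oxygen-regulated subunit of the hypoxia factor HIF-1, had 3 regions at its locus in the phenelzine list and 0 in the untreated list. The strongest, at a listed start 6.47 kb inside the gene boundary, had fold 5.91 and −log10 q 4.77, above 82.9% of the peaks of its list, and both stimulated lists held it. One of the 3 regions lies at the start of Snapc1, a neighbour. Bhlhe40, a helix-loop-helix factor of effector and tissue-resident T cells, had 3 regions against 1. Its start region (4.94, 3.09) was in the phenelzine list alone and in both stimulated lists. Bhlhe40 has no listed start, so this region may lie at either gene end. Zeb2, a zinc-finger repressor of terminal effector cells, had 3 regions against 1, all in its body and none with −log10 q of at least 3. Of the 10 effector transcription factors, 3 had more regions and 1 fewer, and 2 and 2 with −log10 q of at least 3. The 3 and 1 were 60% and 20% of the 5 members with a region, against 32.0% and 17.4% of all genes with a region. Of the 20 genes of glycolysis and hypoxia, 12 had their start region in both lists, and Hif1a was the 1 gene with a start region in a single list. By locus 4 of these 20 had more regions and 3 fewer, and with lists of equal length 2 and 6. The 4 and 3 were 21.1% and 15.8% of members with a region, below the shares over all genes with a region. Eno1, which encodes the glycolytic enzyme enolase, had 1 region in the phenelzine list and 3 in the untreated list.

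Among genes of the response to stimulation, the direction was mixed. Nfatc2, a calcium-regulated NFAT factor, had 1 region in the phenelzine list and 4 in the untreated list, and the 3 lone regions had −log10 q between 1.11 and 1.57. Of the immediate early and AP-1 genes, 7 of 20 had more regions and 5 fewer. Among members with a region the shares were 38.9% and 27.8%, against 32.0% and 17.4% of all genes with a region. The direction turned with lists of equal length by −log10 q, to 3 more and 6 fewer, and with −log10 q of at least 3, to 4 and 7. The start regions of Ier2 (fold 5.74, −log10 q 4.12), Egr2 (5.10, 3.08), Fosl1 (4.31, 1.82) and Fosl2 (4.20, 1.70) were in the untreated list alone, and that of Junb (4.59, 2.80) in the phenelzine list alone. The starts of Jun, Jund, Fosb, Atf3, Egr1, Nr4a1, Ier5 and Dusp1 were in both lists. Ier2, Fosl1 and Egr1 have no listed start, so their regions may lie at either gene end. At Fosb the fold enrichment was 6.44 with phenelzine and 6.05 without, and at Jun 5.02 and 5.33. Of the NF-kB genes, Rel and Nfkbib had start regions in the phenelzine list alone and Nfkb2 and Nfkbie in the untreated list alone.

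Inhibitory receptors and antigen presentation gave few differences. The start regions of Tigit (fold 5.34, −log10 q 3.40) and Cd244a (4.38, 2.29), inhibitory receptors of T and NK cells, were in the untreated list alone and in neither stimulated list. Of the 12 genes of the list, 2 had more regions and 2 fewer. Each was 25% of members with a region, against 32.0% and 17.4% of all genes with a region. None of the 14 genes of MHC class I and antigen presentation had more regions in the phenelzine list and 3 had fewer. Among members with a region the shares were 0% and 23.1%, against the same 32.0% and 17.4%. But with −log10 q of at least 3 there were 4 with more and 2 with fewer. Tapbp (4.64, 2.36) and H2-T23 (3.94, 1.30) had start regions in the untreated list alone, whereas H2-D1, H2-K1, B2m, Tap1 and Psmb9 had theirs in both. H2-D1 had fold 9.93 in the phenelzine list and 11.2 in the untreated list. Of the genes of killing, the start of Nkg7, a granule protein, was in the phenelzine list alone at a fold of 3.86 and a −log10 q of 1.25, near the limit of the list.

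**Figure D4:**
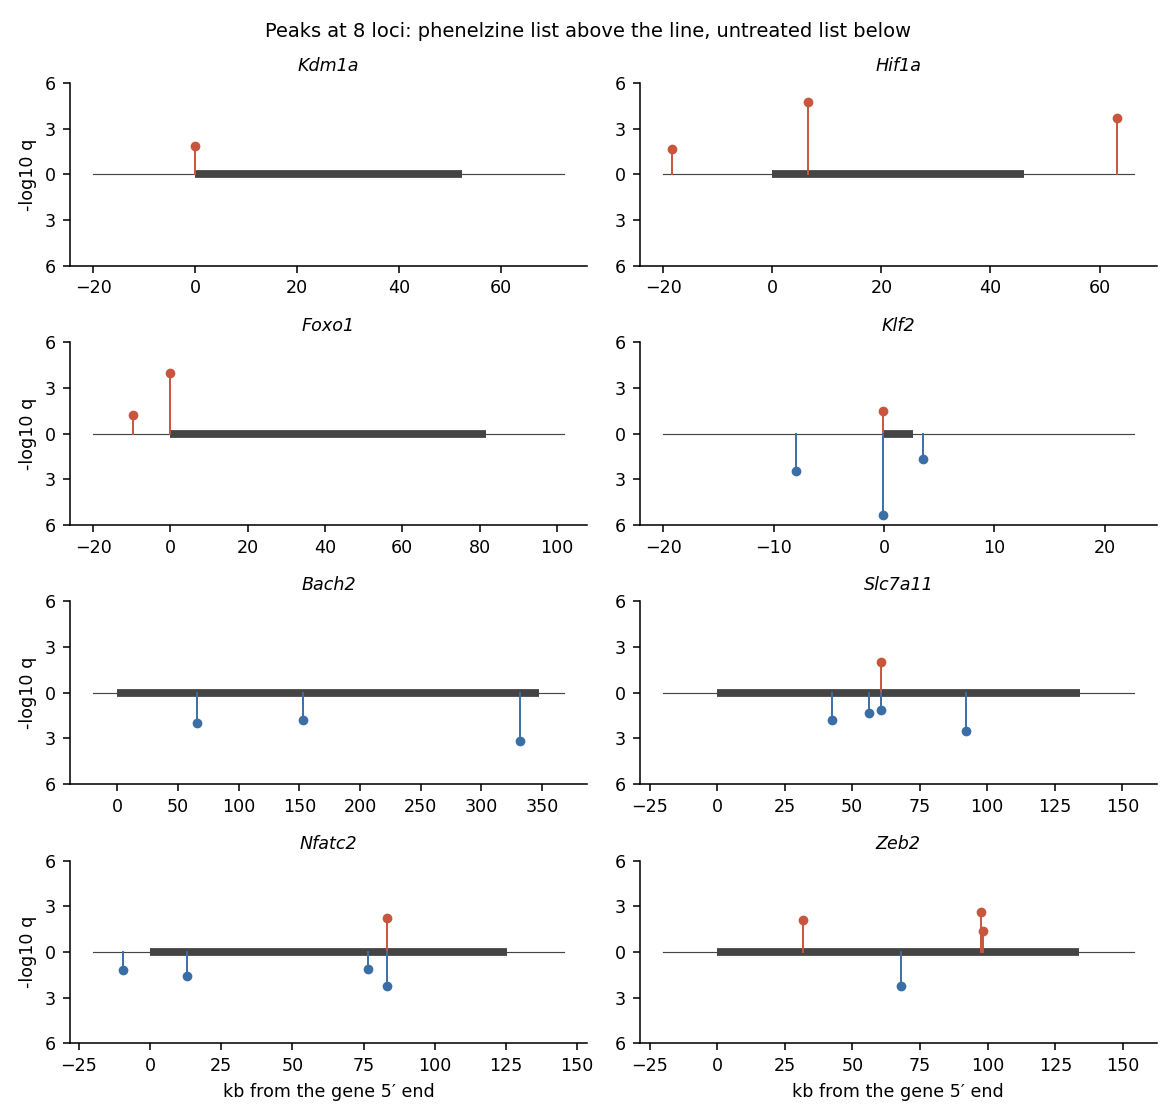
Position of peaks (x axis, kb from the gene 5′ end, grey bar the gene body with 20 kb on either side) and −log10 q (y axis) at 8 loci, for the phenelzine list above the line and the untreated list below. Kdm1a, Hif1a and Foxo1 have peaks above the line only, Bach2 below the line only, and Klf2, Slc7a11, Nfatc2 and Zeb2 on both sides.

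The genes of oxidative stress were split between the lists. Start regions in the phenelzine list alone lay at Nfe2l2 (NRF2, the master factor of the antioxidant response; fold 5.75, −log10 q 4.75), Cat (catalase; 5.61, 4.01), Sod2 (mitochondrial superoxide dismutase; 5.09, 3.17), Prdx1 (peroxiredoxin; 4.75, 2.48) and Txnrd1 (thioredoxin reductase; 4.35, 1.94). In the untreated list alone were those of Gclc (glutathione synthesis; 4.78, 2.54), Hmox1 (haem oxygenase; 4.52, 2.14), Sod1 (4.31, 1.82) and Slc7a11 (the cystine transporter; 3.96, 1.31), the last at a listed start 56.3 kb inside the gene boundary. Hmox1 has no listed start, so its region may lie at either gene end. Slc7a11 had 1 region in the phenelzine list and 4 in the untreated list, none with −log10 q of at least 3. Gclm, Txn1, Gpx1 and Gpx4 had their starts in both. By start, 13 genes had a region, 5 in the phenelzine list alone, 4 in the untreated list alone and 4 in both. The shares over all genes with a start region were 20.8%, 11.6% and 67.1%. Over loci, 4 of the 16 genes had more regions in the phenelzine list and 5 fewer. Of members with a region, 28.6% had more and 35.7% fewer, against 32.0% and 17.4% of all genes with a region. With −log10 q of at least 3, 4 had more and 0 fewer.

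Chromatin enzymes beyond LSD1 had more start regions in the phenelzine list, the longer one. Of 21 with a start region, 7 were in the phenelzine list alone, 2 in the untreated list alone and 12 in both. The shares over all genes with a start region were 20.8%, 11.6% and 67.1%. Of 39 other histone-modifying enzymes, 14 had more regions per locus and 4 fewer. These were 43.75% and 12.5% of members with a region, against 32.0% and 17.4% of all genes with a region. The start regions of Kmt2c (fold 6.50, −log10 q 5.62), Ezh1 (5.25, 3.27), Kmt2a (4.59, 2.30), Ezh2 (4.57, 2.203), Dot1l (4.37, 2.07), Suz12 (4.37, 1.90) and Hdac3 (4.13, 1.60) were in the phenelzine list alone. Kmt2a and Kmt2c methylate lysine 4 of histone H3, the mark that LSD1 removes. Ezh1, Ezh2 and Suz12 belong to Polycomb repressive complex PRC2. In the untreated list alone were Setdb1 (5.32, 3.40), a lysine 9 methyltransferase, and Kat6a (5.14, 3.11), an acetyltransferase. With lists of equal length 12 had more and 7 fewer, and with loci of 5 kb on either side 9 and 5.

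The replication-dependent histone genes, mostly clustered on chromosomes 3 and 13 and transcribed in S phase, stood at the end of the scale by locus counts. Of 62 genes, 46 had more regions in the phenelzine list and 0 fewer. The members are neighbours whose loci share regions, so these counts are not independent: the loci held 17 distinct regions of the phenelzine list alone, 3 of the untreated list alone and 19 of both. With equal list lengths 41 had more and 0 fewer, with loci of 5 kb 28 and 4, and with only peaks of −log10 q of at least 3, 31 and 6. By start, 40 genes had a region, 10 in the phenelzine list alone, 2 in the untreated list alone and 28 in both. Of all genes with a start region, 20.8%, 11.6% and 67.1% fell in these classes, so the gap by start was narrower than by locus. The strongest of the lone start regions was at H4c3 (fold 6.53, −log10 q 5.51), followed by one at H2bc6 (5.52, 3.75) and one at H2ac10 (5.10, 3.15). Counting also genes with a further, shared start region, there were 14 such lone start regions. Of these, 7 were held by the stimulated untreated list and 9 by the stimulated phenelzine list. In the stimulated pair, 18 of the genes had more regions with phenelzine and 24 fewer. Of the 23 cell cycle genes, 3 had more regions and 5 fewer. Among members with a region the shares were 14.3% and 23.8%, against 32.0% and 17.4% of all genes with a region. The counts were 6 and 3 with −log10 q of at least 3, and 6 and 4 with loci of 50 kb. By start, 17 cell cycle genes had a region, 2 in the phenelzine list alone, 3 in the untreated list alone and 12 in both. Over all genes with a start region these classes held 20.8%, 11.6% and 67.1%. The 12 in both lists included Mki67, Top2a, Cdk1, Ccna2, Pcna and Mcm5, markers of proliferating cells.

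Aminoacyl-tRNA synthetases, which charge tRNAs with their amino acids, had more regions in the phenelzine list at 15 of 34 genes and fewer at 4. All 34 had a region, so the shares were 44.1% and 11.8%, against 32.0% and 17.4% of all genes with a region. Under every other peak limit, locus size and list length tried, 13 to 17 had more and 4 fewer. Start regions of the phenelzine list alone lay at the cytosolic Sars (fold 6.44, −log10 q 5.43), Aars (6.60, 5.61), Rars (5.76, 4.23), Iars (5.67, 4.05), Dars (5.54, 3.796) and Cars (5.48, 3.74) and at the mitochondrial Vars2 (6.85, 6.33), Rars2 (6.61, 5.69) and Aars2 (5.97, 4.57). Aars also had a start region in both lists. Of the 12 lone start regions of the family, 10 were held by the stimulated untreated list and 11 by the stimulated phenelzine list, and only that of Aars by neither. Of 4 start regions of the untreated list alone, that of the mitochondrial Fars2 (5.65, 3.91) was the highest, with 16 start regions of the family in both lists.

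Subunits of the respiratory chain and ATP synthase had start regions at 57 genes, 18 in the phenelzine list alone, 3 in the untreated list alone and 36 in both. Of all genes with a start region, 20.8%, 11.6% and 67.1% fell in these classes. By locus 26 of the 83 subunits had more and 9 fewer. These were 39.4% and 13.6% of subunits with a region, against 32.0% and 17.4% of all genes with a region. The highest lone start regions were those of the ATP synthase genes Atp5l (fold 6.97, −log10 q 6.35), Atp5mpl (6.88, 6.17) and Atp5k (6.48, 5.50). Ndufs5 (5.87, 4.27), of complex I, was the highest of those with no phenelzine peak. By locus, equal list lengths gave 19 and 12. Cytosolic ribosomal proteins had 22 of 90 genes with more regions and 8 fewer, shares of those with a region close to or below the background. Rpl37a, of the large subunit, had the highest start region of the phenelzine list alone.

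Other families with a wide gap rested on few or weak regions. The DUSP phosphatases, which act on MAP kinases and other substrates, had 9 of 24 genes with more regions and 0 fewer, but 6 and 2 with lists of equal length. Start regions of the phenelzine list alone were at Dusp16 (fold 5.10, −log10 q 3.08), Dusp19 (4.999, 2.94), Dusp18 (4.48, 2.13) and Dusp3 (4.42, 2.05). Chemokines and their receptors had 14 of 54 with more and 4 fewer, and 2 and 1 with −log10 q of at least 3. Here the neutrophil attractant Cxcl5 had the highest lone start region (6.13, 4.97), and those of Cxcl10, Ccl2, Ccr1 and Cxcl1 lay between 1.25 and 2.02. Of the myeloid markers, 6 of 14 had more regions and 1 fewer, and 3 and 1 with lists of equal length. Fcgr3 and Fcgr4 share 2 of these regions. Of members with a region, 56.25% of DUSP, 58.3% of chemokine and 75% of myeloid genes had more, against 32.0% of all genes with a region. Those with fewer were 0%, 16.7% and 12.5%, against 17.4%. The part of myeloid cells in these values was not tested.

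**Figure D5:**
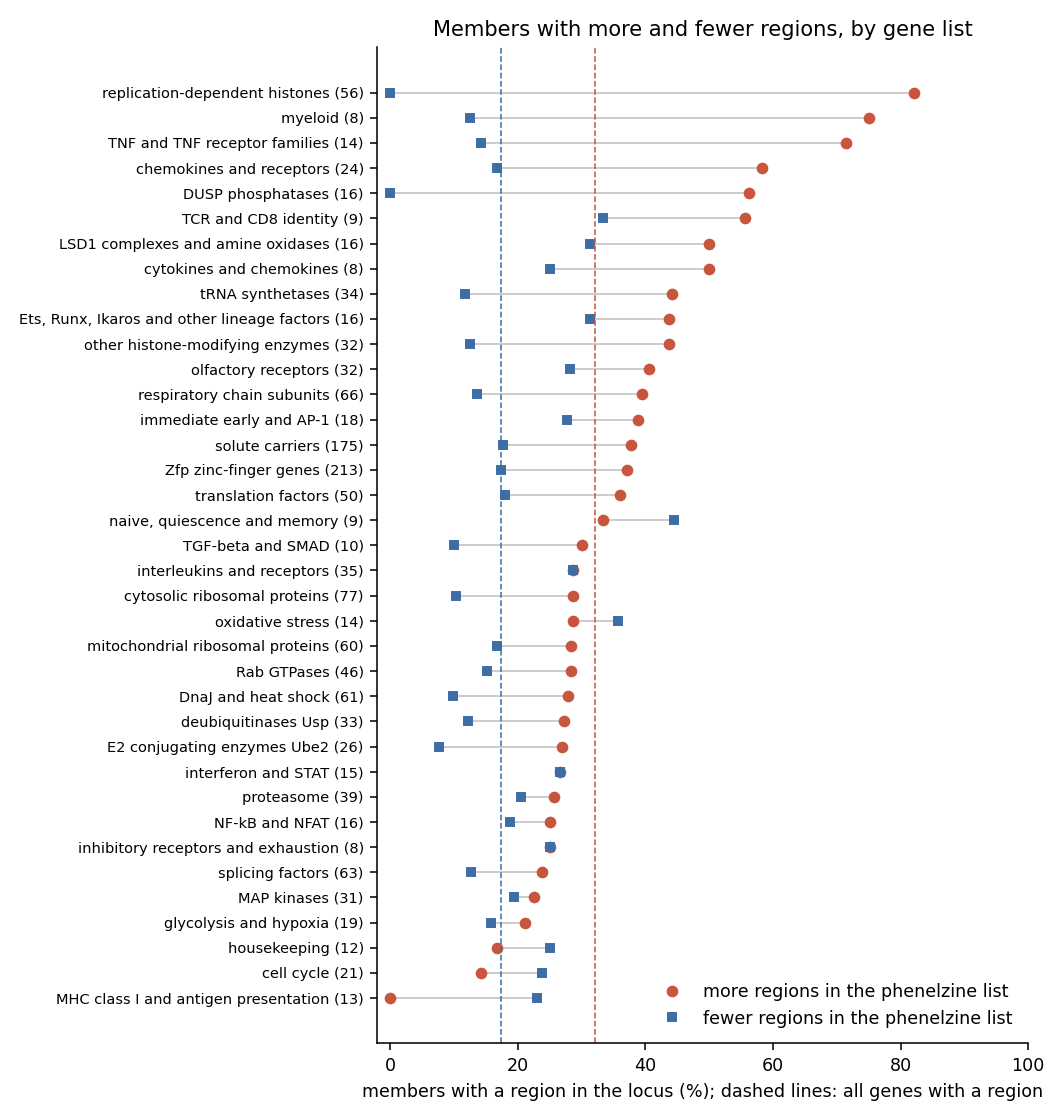
Percent of members with a region in the locus (x axis) that had more (red) or fewer (blue) regions in the phenelzine list, for lists and families with at least 8 such members (number in parentheses). Dashed lines are all genes with a region, at 32.0% and 17.4%; replication-dependent histones have 46 of 56 with more and 0 fewer, and the MHC class I list 0 of 13 with more, a direction that turned with −log10 q of at least 3.

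The start regions with the highest −log10 q of each class were also described. In the phenelzine list alone they included Rpl37a (fold 8.73, −log10 q 10.2), Gtpbp10, a mitochondrial ribosome assembly factor (8.28, 8.81), Srsf11, a splicing factor (7.67, 8.26; a second start of this gene was in both lists), and Caap1, an apoptosis inhibitor (7.98, 8.201). In the untreated list alone they included Trmt61a, a tRNA methyltransferase (8.29, 8.79), Haus5, of the spindle augmin complex (7.21, 6.62), Tgif1, a repressor of TGF-beta signalling (6.94, 6.49), and Commd6 (6.96, 6.39). The Trmt61a region was held by the stimulated phenelzine list and not by the stimulated untreated list. Among the shared starts with the best lower rank of the 2 lists were those of H2-D1, of Hmmr with Nudcd2, Ect2, Nelfcd, Sp2, Rere, Txnip and Hjurp. For Nelfcd, which has no listed start, the region may lie at either gene end. Txnip, a brake on glucose uptake and thioredoxin, had fold 8.48 and −log10 q 10.8 in the phenelzine list. In the untreated list it had fold 10.9 and −log10 q 16.2.

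Promoter windows of 300 bases, 250 before and 50 after each listed start, were searched for 10 motifs on both strands. The letters of each motif other than that of NRF1 are given with its shares. Windows whose start had a region were compared with all 21020 windows, and 1112 belonged to the phenelzine list alone, 612 to the untreated list alone and 3755 to both. The SP/KLF motif GGGCGG was in 46.6% of all windows, 64.2% of those in the phenelzine list alone, 71.4% of those in the untreated list alone and 74.9% of those in both. The ETS motif CCGGAAG was in 11.7%, 25.4%, 25.2% and 27.0% in the same order. For the NRF1 motif, the shares were 1.34%, 2.97%, 2.29% and 4.66%, and for the NF-Y motif CCAAT 38.5%, 40.0%, 39.2% and 51.4%. The CREB/ATF motif TGACGTCA was in 2.26% of all, 5.13%, 3.59% and 5.03%. The AP-1 motif TGANTCA was in 7.04%, 3.87%, 3.27% and 3.81%, the RUNX motif TGTGGTT in 4.73%, 2.88%, 2.29% and 3.14%, and TATAAA in 12.7%, 7.10%, 4.90% and 4.74%. The letters TGAGTCA and TGACTCA in the Prdx1 sequence are matches to the AP-1 motif that lie upstream of the called region and outside it, and CACGTG in the Hif1a sequence is a match to the E-box motif. Median GC content was 61.3% in windows of the phenelzine list alone, 62.0% in those of the untreated list alone and 62.7% in those of both, against 56.7% in all. The YY1 motif AAGATGG was in 6.28% of all windows, 8.81%, 8.99% and 8.95%, and the E-box motif CACGTG in 7.91%, 12.1%, 11.6% and 12.1%. Intervals of the lone classes overlapped for the motifs searched other than SP/KLF, with 61.3 to 67.0% in the phenelzine list alone and 67.6 to 75.0% in the untreated list alone. A match is a run of letters and not a measured site.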

How the data were processed

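The genome build was mm10 and the tools named were MACS2, HOMER, Picard, Bowtie2 (2.2.5) and Trimmomatic (0.33), per the submitters' processing notes, with no parameters in the sources used here. The authors deposited 1 broad peak list per library, each called separately. By the standard layout of such lists and their values, the columns that the authors deposited are a score (10 times −log10 q, rounded down), the fold enrichment as a ratio, and the p-value and q-value as −log10. Peak names carry the tag less120, which no label explains; if it is a fragment length limit, the lists cover short fragments only.

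Peaks on chromosomes 1 to 19 and X were merged where they overlapped by at least 1 bp. Depth was described by the background pileup that the most frequent pair of fold and −log10 p implied. Gene starts came from RefSeq promoters (GRCm38.p6) and the 5′ gene boundary for 17274 of 21631 protein-coding genes; for the other 4357 either gene end was taken. A locus was the gene body with 20 kb on either side. The 25 gene lists (373 genes) and 21 families, matched by symbol, were chosen with earlier results of these data known. The symbol patterns of 3 families were narrowed after values were seen, to leave out kinases and binding proteins of similar name. Genes named were list genes whose loci differed by at least 2 regions, with Kdm1a, Maoa and Maob, the 10 highest start regions of each class, the 10 highest and lowest net differences, and list or family members with start regions in 1 class; others were chosen after their values were seen. No test was made, with 1 library per condition. Shares have exact 95% intervals for counting error only. The merging was tested on simulated data and returned the class of 100% of 600 planted regions. Python 3.11.15, pandas 2.3.3 and scipy 1.17.1 were used. Other list lengths, peak limits, overlaps, windows and loci were tried; the window at either end of every gene was added after seeing the data. Results for some list genes are not reported here.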

Additional observations from a re-analysis of the deposited data

Results flagged for a closer look

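At 20 of the 86 named loci the number of regions differed one way between phenelzine and untreated cells without stimulation and the other way with stimulation. The 9 where both differences were at least 2 regions are given here. The difference was not tested, as each condition had 1 library. Macrod2, a gene of 1997664 bp, had 9 regions with phenelzine against 2 without in unstimulated cells and 4 against 6 in stimulated cells, a gap of 9 between the contrasts. H2bc9, in the histone cluster, had 8 against 4 and then 5 against 9 (gap 8). Angpt1, a ligand of the endothelial receptor TIE2, had 6 against 1 and then 4 against 6 (gap 7). Cdk9, the kinase of the elongation factor P-TEFb, had 2 against 0 and then 2 against 6 (gap 6), and the uncharacterised E230025N22Rik 6 against 2 and then 3 against 5 (gap 6). Cd14, a monocyte receptor, had 5 against 3 and then 3 against 6 (gap 5), and Fcgr3, an Fc receptor of myeloid and NK cells, 3 against 0 and then 2 against 4 (gap 5). Zeb2 had 3 against 1 and then 1 against 3 (gap 4), and Tmem94 2 against 0 and then 2 against 4 (gap 4). These loci were named by their regions in unstimulated cells, so the first of each pair of differences is no finding. The gaps contain that difference and are no finding either. The share of all genes with opposite directions was not counted, so the 20 of 86 has no background beside it.

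The comparison did not use chromosome Y. The phenelzine list held 9 peaks there and the untreated list 6.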

How the results depend on the processing

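The limits are set by 1 library per condition, by a phenelzine library with the higher implied background, and by calls near the threshold. Of 92 values for the whole comparison under other settings, 55 stayed close to the reported value and 37 moved, and none reversed. With −log10 q of at least 3, regions numbered 1416 in the phenelzine list alone, 1168 in the untreated list alone and 2007 in both. Start shares were then 74.8%, 74.7% and 88.7%, genes with more regions 2226 and genes with a start in both lists 2163. Under this limit the stimulated untreated list held 82.1% of the phenelzine-alone and 84.1% of the untreated-alone regions, and the stimulated phenelzine list 77.5% and 79.3%. With lists of equal length by −log10 q, start shares were 49.2%, 45.2% and 81.5%. The order of the lone classes thus turned from the reported 42.2% and 42.8%. The stimulated untreated list then held 55.8% and 54.3%, and the stimulated phenelzine list 48.4% and 49.4%. With equal length by fold, start shares were 49.3%, 44.7% and 82.0%, and the shares held were 55.6% and 54.8%, and 48.1% and 49.8%. With an overlap of at least 50% of the shorter peak they were 50.1% and 52.6%, and 43.7% and 47.7%, and 36.4% of untreated peaks in the lowest of 10 bins were shared. Ranked by fold, 26.9% of phenelzine peaks in the lowest bin were. With a start window of 500 bp, start shares were 39.8%, 40.4% and 78.2%, and with a window at either end of every gene 38.4%, 39.4% and 74.5%. The cause of these shifts was not tested.

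Of 430 values for named genes, 367 were the same, 61 moved and 2 reversed. In 52 of these values, at 36 genes, the difference fell to 0, of which 28 with −log10 q of at least 3, Kdm1a, Maoa, Nfatc2, Prdx1, Cdk9, Zeb2 and Slc7a11 among them. The reversed ones were these: Gse1, an LSD1 complex partner, went to -1 with −log10 q of at least 3, and Naxd to 1 with loci of 50 kb on either side. Of 460 list and family counts, 322 were the same and 138 moved. No paired analysis was possible because each condition had 1 library.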

Other observations

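The 2 regions of the phenelzine list alone with the highest −log10 q lay far from genes. One, at chr9:3027109-3027176, was 308055 bp from Alkbh8 and had fold 9.72 and −log10 q 46.4. The other, at chr4:80002791-80002979, was 831144 bp from Tyrp1, with −log10 q 23.9 at a fold of 2.94, below the class median of 4.39. Neither was in a stimulated list. In the main comparison no filter for repeated or high-signal sequence was applied to these or any other regions.

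The window of 500 kb with the widest gap was chr1:85000001-85500000, with 12 regions in the phenelzine list alone, 2 in the untreated list alone and 0 in both. The second was the histone cluster at chr13:23500001-24000000, with 10, 2 and 10. By chromosome, the share of regions in the phenelzine list alone ran from 27.5% (24.02 to 31.2) on chromosome 7 to 41.1% (33.0 to 49.5) on X.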
